A study of Mus musculus with 2 samples.

Results

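The mitochondrial ribosomal protein genes described here are the genes whose symbols begin with Mrpl or Mrps followed by a number and that have at least 1 protein-coding transcript. The rule selected 78 of the 55536 genes in the tables, 49 with an Mrpl symbol and 29 with an Mrps symbol, and it used no measured value. The series holds 1 group, tissue labelled as a layer of hippocampus from male B6CASTF1/J mice (the F1 hybrid of C57BL/6 and CAST) at 14 days of age, with no treatment or genotype contrast named in the labels. It was sampled as 2 biological replicates, each a pool for which the labels list 3 males. Total RNA (300 ng per library) was sequenced in stranded libraries depleted of ribosomal RNA, with ERCC spike-in transcripts added. With 1 group, the only comparisons available were between genes and between the 2 libraries.

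The mitochondrial ribosome, or mitoribosome, sits in the mitochondrial matrix at the inner membrane and translates the mRNAs of the mitochondrial genome, all of which encode subunits of the respiratory chain and ATP synthase. Its ribosomal RNAs are transcribed from mitochondrial DNA, while every one of its proteins is encoded in the nucleus, made in the cytosol and imported. Many of these proteins belong to families shared with bacterial ribosomes, and others are found only in mitochondrial ribosomes, where they take over surface once occupied by RNA. Loss of a mitoribosomal protein impairs oxidative phosphorylation, on which neurons depend heavily.

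By their place in the mammalian mitoribosome, 51 of the genes encode large subunit proteins and 26 encode small subunit proteins. Symbol and place disagree for a few of them. Mrps30 and Mrps18a carry small subunit symbols, but their products sit in the large subunit, under the unified names mL65 and mL66. Mrps36 is not a ribosomal protein in this sense, since its product is now known as a component of the oxoglutarate dehydrogenase complex, and it was kept because the rule includes it. The genes lay on 17 chromosomes of the mm10 build, with 11 on chromosome 11, 8 on chromosome 17 and 7 on chromosome 6.

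The gene tables held 29144892 expected counts for genes in replicate 1 and 31755578 in replicate 2, where an expected count is a number of reads assigned to a gene after reads that fit several transcripts have been shared out. The mitoribosomal genes together took 34790 and 40149 of these, or 0.119% and 0.126%. Myelin genes differed between the pools, with all 8 oligodendrocyte markers lower in replicate 2, among them the myelin basic protein gene Mbp at 813 and 439 TPM (a length-corrected measure of transcript abundance that sums to the same total in every library). Markers of tissue next to the hippocampus were also lower in replicate 2, including the thalamic gene Tcf7l2 at 18.2 and 7.3 TPM and the choroid plexus gene Ttr at 85.9 and 45.8 TPM. Hippocampal field markers, with a median of 53.4 TPM, and excitatory neuron markers, with a median of 675 TPM, were detected throughout. By the binomial test described below, 4 of 5 field markers and 3 of 5 excitatory markers were called higher in replicate 2. None of either list was called higher in replicate 1. All 3 microglia markers were called higher in replicate 2, and all 3 red blood cell markers higher in replicate 1. Of all genes tested, 12.5% were called higher in replicate 2 and 10.2% in replicate 1. In whole tissue, fewer cells of a type and less RNA per cell cannot be told apart.

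All 78 genes were detected, at 1 TPM or more in both libraries, against 58.7% of the 22028 protein-coding genes. The threshold of 5 TPM was met by 77 and that of 10 TPM by 68. Their median level was 21.3 TPM in replicate 1 and 23.3 TPM in replicate 2, a mean of 22.3 ± 1.48 TPM (SD, n = 2). The median over the 12924 detected protein-coding genes was 15.2 TPM, and 58 of the 78 lay above it. The mitoribosomal median corresponded to percentile 62.1 of the detected protein-coding genes. The levels were also close to each other, since 60 genes had a mean between 10 and 40 TPM. The SD of log2 mean TPM over the genes was 0.82, compared with 1.84 over all detected protein-coding genes.

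**Figure D1:**
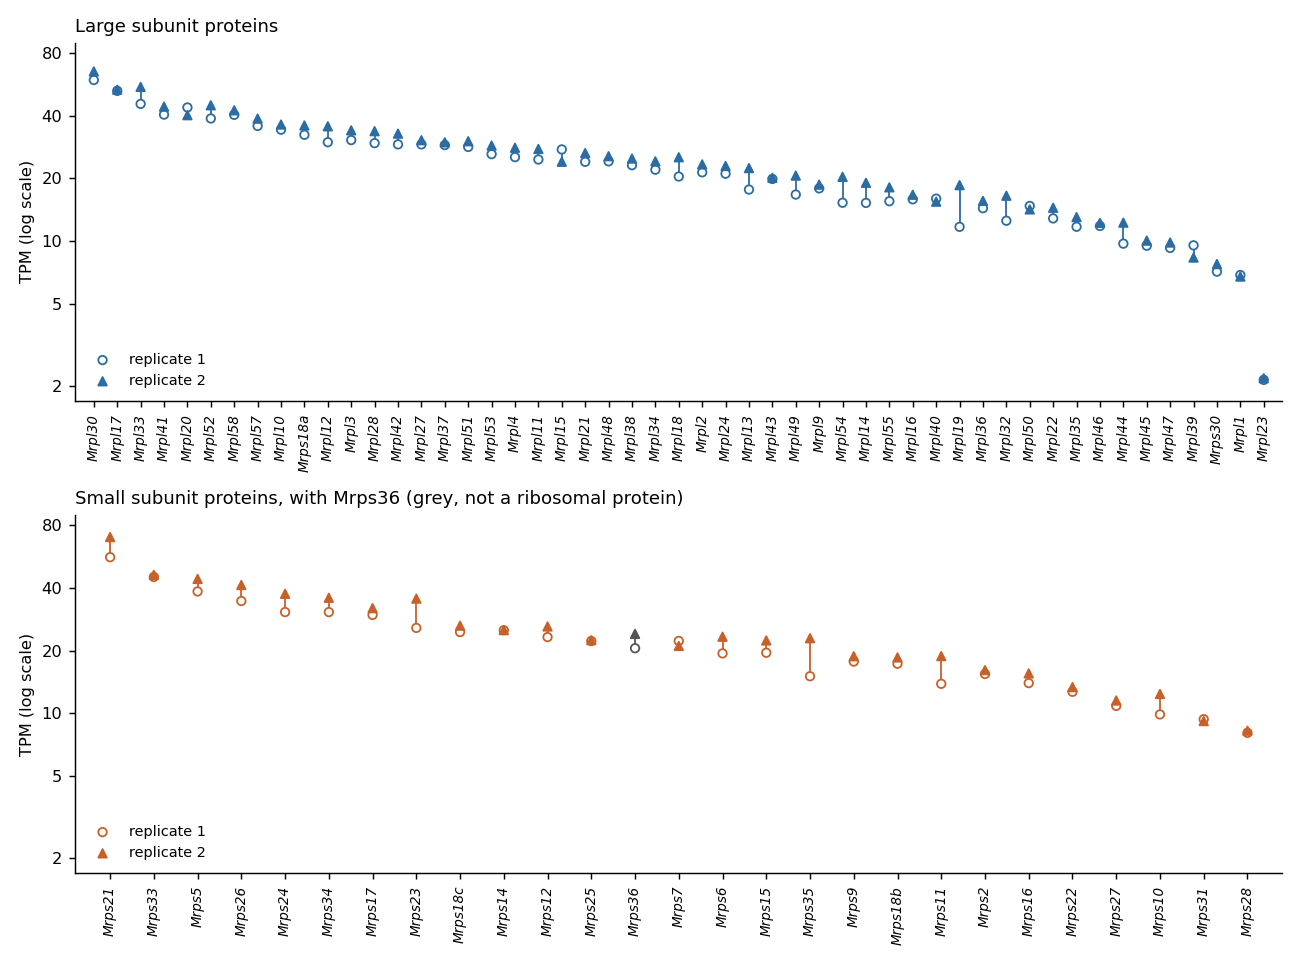
TPM of each gene (vertical axis, log scale) in replicate 1 (open circles) and replicate 2 (triangles), with a line joining both, for large subunit proteins (top) and small subunit proteins with Mrps36 (bottom), ordered by mean. All but Mrpl23, at 2.17 TPM, have a mean between 6.81 and 63.3 TPM.

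Both subunits were represented among the 10 highest genes, with 7 of the large and 3 of the small subunit above 40 TPM. Mrps21, encoding the small subunit protein bS21m, led in the gene tables with 56.2 and 70.3 TPM in replicates 1 and 2. Mrpl30 (uL30m of the large subunit) had 59.5 and 65.5 TPM. Mrpl17, a bacterial-family protein of the large subunit, had 52.8 and 53.5 TPM. The ranges of the top pair of genes overlapped, so their order was not resolved by these libraries, whereas both lay above Mrpl17 in each library. Mrpl33, a small protein of the large subunit, had 45.7 and 55.1 TPM, and Mrps33, a mitochondria-specific small subunit protein, had 45.2 and 46.3 TPM. Below them came Mrpl41 at 42.5 ± 2.66 TPM, Mrpl20 at 42.1 ± 2.55 TPM, Mrpl52 at 41.9 ± 4.32 TPM, Mrpl58 at 41.5 ± 1.46 TPM and Mrps5 at 41.3 ± 4.03 TPM (SD, n = 2 for each). The means of these 5 differed from each other by less than the SD of any of them. Mrpl58 encodes a peptidyl-tRNA hydrolase that became a structural part of the large subunit and can release chains from stalled ribosomes, and Mrps5 encodes uS5m, which lines the mRNA entry channel.

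At the other end, 8 genes had a mean under 10 TPM, 6 of the large subunit and 2 of the small. Mrpl1, encoding the protein of the mobile L1 stalk where tRNAs leave, had 6.87 and 6.75 TPM. Mrps30 had 7.13 and 7.75 TPM, and Mrps28, a small subunit protein, had 8.04 and 8.23 TPM. Mrpl39, which resembles a threonyl-tRNA synthetase, had 9.54 and 8.33 TPM, and Mrps31, a mitochondria-specific small subunit protein, had 9.35 and 9.16 TPM. Mrpl47 (9.27 and 9.84 TPM) and Mrpl45 (9.5 and 10.1 TPM) followed, the latter encoding the protein that anchors the mitoribosome to the inner membrane near the exit tunnel. Mrpl44, a relative of ribonuclease III, had 9.72 and 12.3 TPM, and Mrps10, of the small subunit head, had 9.86 and 12.4 TPM. Among these 9, the distances between neighbours in the order were mostly as small as the differences between libraries, apart from Mrpl1 and Mrps30, which lay below the others in both libraries.

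TPM corrects for length, and the position of a gene in this order depended on that correction. Over the 78 genes, Spearman's rho of mean TPM with effective length was -0.51, while that of mean library-scaled counts with effective length was 0.36. These are correlations across genes of the same libraries and are given without a test. The genes are short, with a median effective length of 955 bases against 2426 over detected protein-coding genes. Mrps30, for example, had 467 and 542 counts over an effective length of 3250 bases, more counts than Mrps21, with 385 and 494 over 333 bases.

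Large and small subunit genes had similar levels. The median over large subunit genes was 21.4 and 24.1 TPM in replicates 1 and 2, and the median over small subunit genes was 20.9 and 22.7 TPM. The log2 difference of these medians was 0.04 in replicate 1 and 0.09 in replicate 2, a mean of 0.06 ± 0.03 (SD, n = 2). No test was made, because a sign-flip test over 2 libraries cannot give a small p-value. Genes of the bacterial families (46, median 22.2 TPM) and mitochondria-specific genes (31, median 22.3 TPM) were also close. Mrps18a (mL66) and Mrps18b (mS40), though paralogues of a bacterial protein, were counted as mitochondria-specific.

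Mammals have 3 paralogues of the bacterial protein bS18, and each is built into the mitoribosome at its own place. Mrps18a, of the large subunit, had 32.5 and 35.99 TPM, Mrps18c, at the place of bacterial bS18, had 24.6 and 26.3 TPM, and Mrps18b (mS40 of the small subunit) had 17.3 and 18.5 TPM. The order of the 3 was the same in both libraries and their ranges did not overlap. Mrpl12, encoding the stalk protein that recruits translation factors, had 29.9 and 35.7 TPM. Mrps36, the gene outside the ribosome, had 20.5 and 24.1 TPM, which placed it at rank 40 of 78.

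Mrpl23, encoding uL23m at the exit of the peptide tunnel, was the lowest of the 78 and its level differed between the deposited quantifications. In the gene tables it had 75.3 and 71.8 counts, or 2.15 and 2.19 TPM. In the same tables a processed pseudogene, Mrpl23-ps1 (chr2:74591330-74591909, minus strand), had 248.7 and 256 counts, or 25.6 and 24.8 TPM. In the transcript tables with kallisto's column layout, which the authors made from the reads rather than from alignments, Mrpl23 had 347 and 351 counts and the pseudogene had 0 in both libraries. There the TPM of Mrpl23 was 51.0 and 49.9, and its rank moved from 78 to 21. The sum of gene and pseudogene in the gene tables, 324 and 328 counts, was 27.8 and 27.0 TPM. Gene (chr7:142532686-142540747, plus strand) and pseudogene lie on different chromosomes.

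Both sequences are shown because, in the reference, a read that lies within this coding part matches both loci equally well. The coding sequence of transcript Mrpl23-201, 438 bases long, aligned to Mrpl23-ps1 over its full length with 0 mismatches. The first 120 coding bases, with the start codon in capitals, and the matching stretch of the pseudogene transcript (its bases 18 to 137) read as follows in the GENCODE M21 transcripts.
Mrpl23-201: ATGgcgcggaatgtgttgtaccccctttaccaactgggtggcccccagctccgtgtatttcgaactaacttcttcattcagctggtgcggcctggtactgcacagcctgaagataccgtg
Mrpl23-ps1: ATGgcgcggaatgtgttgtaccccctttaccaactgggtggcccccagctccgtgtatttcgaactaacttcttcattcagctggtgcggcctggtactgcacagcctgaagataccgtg
The coding part of Mrpl23-207 (303 bases) also aligned with 0 mismatches, and that of Mrpl23-206 aligned over 443 of its 516 bases with 7 mismatches. Of the distinct stretches of 31 bases in the pseudogene transcript, 94.6% also occurred in Mrpl23-201, and every such stretch in the coding part of Mrpl23-201 occurred in the pseudogene. The gene tables assigned only 4.84 and 10.1 counts to Mrpl23-201 and placed most of the gene's counts, 59.3 and 52.5, on Mrpl23-205, an annotated retained-intron transcript. The kallisto-layout tables gave 61.1% of the gene's TPM to Mrpl23-206. Mrpl23 alone of the 78 had a posterior SD, the uncertainty of the count from sharing out reads, above 5% of its count, at 28.0%. In replicate 2 that SD was 20.1 counts, and it was 20.1 counts for the pseudogene as well. Which share of these reads came from the pseudogene was not tested.

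**Figure D2:**
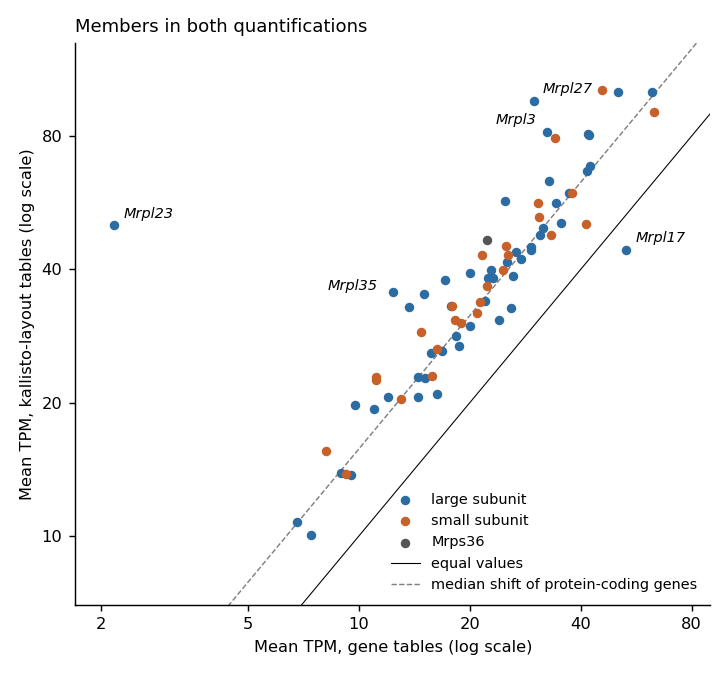
Mean TPM over both libraries of each gene in the gene tables (horizontal axis) and in the kallisto-layout tables (vertical axis), both on log scales, with the line of equal values and the median shift of detected protein-coding genes (dashed). Mrpl23 lies 3.89 log2 units above the dashed line, and 68 of the 78 genes lie within 0.5 of it.

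For the other genes both quantifications gave closer orders. Kallisto-layout TPM was higher by a median log2 of 0.65 over detected protein-coding genes, which is a shift of the whole scale, and the mitoribosomal median was 0.70. Relative to that shift, 68 of the 78 lay within 0.5 and 2 lay more than 1 away, Mrpl23 and Mrpl27. Mrpl27, a bacterial-family protein near the peptidyl transferase centre, was higher by 1.03 log2 units of TPM. Its counts were close, at 365 and 427 in the gene tables and 371 and 426 in the kallisto-layout tables. The next 3 were Mrpl17, lower at -0.91, Mrpl35, higher at 0.87, and Mrpl3, higher at 0.69. Spearman's rho between both quantifications over the 78 genes was 0.89, across genes that share the same reads. The order at the top still changed. In the kallisto-layout tables Mrps33 ranked 1, Mrpl30 2, Mrpl33 3 and Mrps21 5. Mrpl27 moved from rank 23 to 4, and Mrpl17 from 3 to 28.

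Other genes of the set also shared sequence with other genes, and none of them had a posterior SD above 5% of its count. Of the 78, 29 shared more than 5% of their distinct 31-base stretches with transcripts of other genes, and 24 shared none. Sharing was summed over any number of genes, for example 1 for Mrpl22 (29.8%) and 1289 for Mrpl35 (5.01%). It includes genes that overlap at the same place, such as Nme3 for Mrps34. The share over all genes was not measured. Mrps33 had 712 and 720 counts in the gene tables beside 31.3 and 87.7 for the processed pseudogene Gm5776, which had 0 counts in both kallisto-layout libraries. The log2 ratio of replicate 2 over replicate 1 was 1.35 for Gm5776 (binomial test, adjusted p = 2.9e-05) and -0.12 for Mrps33 (adjusted p = 0.272). The posterior SD of Gm5776 was up to 36.2% of its count, larger than that of Mrpl23, and the binomial test treats such shared-out counts as exact. Mrps5 had 778 and 988 counts beside 55.5 and 56.3 for the processed pseudogene Gm13328, which had 0 and 1.62 counts in the kallisto-layout tables. Mrpl53 is annotated within the span of Gm42688, a protein-coding gene of the same strand whose transcripts contain 84.4% of the 31-base stretches of Mrpl53. Gm42688 had 190 and 221 counts in the gene tables and 367 and 435 in the kallisto-layout tables, and Mrpl53 had 316 and 370 against 234 and 239. Counts of these genes are uncertain to the extent that reads were divided between loci. These shared-sequence searches were added after the values of Mrpl23 had been seen.

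The promoters of the genes were examined for letters bound by factors known to control nuclear genes of mitochondria. NRF1 and the ETS-family factor GABP (also called NRF2) are activators of many such genes, and YY1 binds promoters of respiratory genes. RefSeq promoter windows of 300 bases (250 before and 50 after the annotated start, GRCm38.p6) were matched by symbol for 69 of the 78 genes. Both strands were searched for GCGCATGCG (NRF1), TGCGCA (a shorter NRF1 core that overlaps it), CCGGAAG (ETS, GABP), AAGATGGCG (YY1), GGGCGG (the GC box of Sp1) and, for the classical core promoter box, TATAAA. Exact matches of either form of the NRF1 letters, the ETS letters or the YY1 letters were found in 44 of the 69, or 63.8%. The share was 35.2% of detected protein-coding genes with a window and 18.6% of all genes with a window. The ETS letters occurred in 26 genes (37.7%, against 19.4% of detected protein-coding genes), the NRF1 core in 21 (30.4% against 16.2%), the longer NRF1 letters in 7 (10.1% against 4.09%) and the YY1 letters in 8 (11.6% against 3.54%). The GC box was less common, in 49.3% against 70.1%, and TATAAA was found in 7.25% against 8.31%. The median GC content was 58.7%, compared with 61% for detected protein-coding genes and 52.7% for all windows. A match describes letters in a window and not a bound site, and no test was made of these shares.

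The placement of the letters is shown for a pair of windows, chosen by the number of different motifs in the 250 bases before a single start, with the higher mean TPM first among ties. By that count Mrpl17 led with 4 and Mrps17 followed among those with 3. The window of Mrps18b, next in order, is not shown because it overlaps annotated exons. That of Mrpl17 also overlaps GENCODE exons, by 12 bases, and was kept. Over the full windows Mrps18b and Mrps24 also had 4. Mrpl17, the third highest gene in the gene tables, and Mrps17, of the small subunit, are shown for the 250 bases before the annotated start. They are read in the direction of the gene, with the matched letters of either strand in capitals. The window of Mrpl17 is chr7:105811088-105811337 (minus strand) and that of Mrps17 is chr5:129715247-129715496 (plus strand).
Mrpl17: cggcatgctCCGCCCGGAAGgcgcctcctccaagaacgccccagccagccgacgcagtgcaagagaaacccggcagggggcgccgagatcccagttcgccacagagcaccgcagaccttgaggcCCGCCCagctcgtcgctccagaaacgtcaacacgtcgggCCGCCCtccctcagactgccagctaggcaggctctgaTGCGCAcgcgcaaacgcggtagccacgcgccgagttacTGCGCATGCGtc
Mrps17: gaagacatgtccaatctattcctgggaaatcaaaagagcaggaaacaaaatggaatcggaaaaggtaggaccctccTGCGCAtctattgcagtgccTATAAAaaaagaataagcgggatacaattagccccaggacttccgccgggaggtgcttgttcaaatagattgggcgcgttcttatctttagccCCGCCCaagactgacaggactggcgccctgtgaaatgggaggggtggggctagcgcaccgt
In Mrpl17 an ETS match overlaps a GC box far from the RefSeq start, and the longer NRF1 letters lie 11 bases before that start, overlapping a core match. In GENCODE the gene starts at chr7:105811099, so the last 12 bases shown, with these NRF1 letters, lie within the gene. Mrps17 has 1 core match, a GC box and TATAAA at 154 bases before the start, and its level was 29.7 and 32.0 TPM. Among the 69 genes the median level was 28.4 TPM for the 26 with the ETS letters and 18.3 TPM for the 43 without. With the NRF1 core it was 21.3 TPM for 21 genes and 22.6 TPM for the 48 without. For the YY1 letters it was 22.9 TPM for 8 genes and 22.3 TPM for the 61 without. These differences were not tested, and TPM also varied with effective length over the genes.

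Many of the genes start close to a neighbour on the opposite strand. A protein-coding gene running the other way, not overlapping and with its start within 1000 bases, was annotated for 18 of the 78, or 23.1%. The share among detected protein-coding genes was 9.73%. Pairs that overlap at their starts, such as Mrps11 and Mrpl46, were not counted. The counted pairs joined mitoribosomal genes to genes of other functions as well as related ones. Mrps12, the small subunit protein of the decoding centre, starts 172 bases from Sars2, the mitochondrial seryl-tRNA synthetase, and had 23.2 and 26.1 TPM where Sars2 had 6.59 ± 0.41 TPM. Mrps27, at 10.8 and 11.5 TPM, starts 81 bases from Ptcd2, a pentatricopeptide protein of mitochondrial RNA processing, at 14.2 ± 0.62 TPM. Mrpl49 starts 59 bases from Fau, which encodes a cytosolic ribosomal protein fused to a ubiquitin-like protein, at 280 ± 50.3 TPM, while Mrpl49 had 16.7 and 20.7 TPM. Mrpl57 starts 49 bases from the kinetochore gene Ska3, at 0.66 ± 0.01 TPM, while Mrpl57 had 35.8 and 38.8 TPM (SD, n = 2 for each neighbour). Levels on both sides of a start region thus ranged from similar, as for Mrps27 and Ptcd2, to far apart, as for Mrpl57 and Ska3.

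The lists of assembly factors, translation factors and tRNA synthetases had lower medians than the mitoribosomal genes, and the lists of respiratory chain subunits and cytosolic ribosomal proteins had higher ones. Of the other mitoribosomal proteins, whose symbols do not begin with Mrp, all 5 were detected, with a median of 30.6 TPM and Dap3 (the GTP-binding small subunit protein mS29) at 48.2, Aurkaip1 at 35.8 and Ptcd3 at 30.6 TPM. The 25 genes of assembly and rRNA modification were all detected, with a median of 8.18 TPM. They were led by the RNA helicase gene Dhx30 at 62.9 TPM, with Trub2, a pseudouridine synthase, at 21.8 TPM and Mpv17l2 at 21.4 TPM, and the lowest was the endonuclease gene Ybey at 1.52 TPM. The 12 translation factor genes had a median of 12.3 TPM, with the elongation factor gene Tufm at 40.6 TPM, Oxa1l, the inner membrane insertase, at 25.7 TPM and the elongation factor gene Gfm1 at 23.3 TPM. The 19 aminoacyl-tRNA synthetase genes had a median of 10.6 TPM, led by Gars at 65.6, Lars2 at 39.5 and Kars at 35.3 TPM, and the products of Gars and Kars also serve the cytosol. For transcription of mitochondrial DNA and mRNA stability, 6 genes had a median of 17.0 TPM, led by the RNA-binding protein genes Slirp at 37.3 and Lrpprc at 28.9 TPM, with the mitochondrial RNA polymerase gene Polrmt at 17.97 TPM. The 8 nuclear regulators had a median of 10.7 TPM, led by Esrra at 21.6, Yy1 at 21.4 and Ppargc1a at 21.1 TPM, and Nrf1 had 9.56 and 9.09 TPM.

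**Figure D3:**
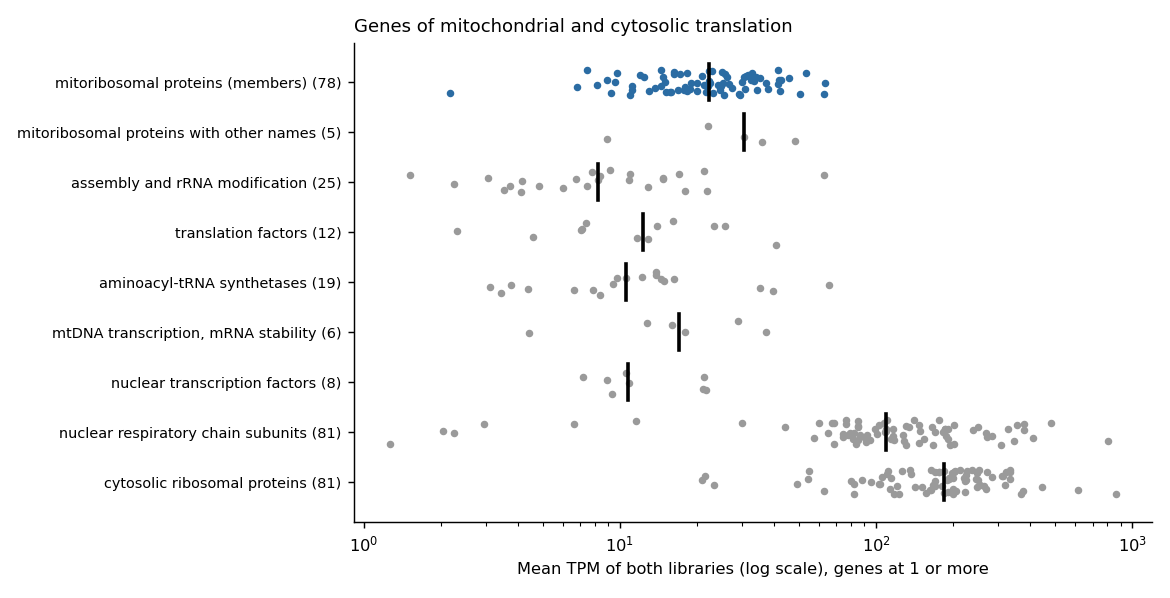
Mean TPM over both libraries (horizontal axis, log scale) of the genes at 1 TPM or more in each list, with their number in parentheses and a black bar at the median of all genes of the list. The mitoribosomal genes (blue) centre at 22.3 TPM, between the 8.18 TPM of assembly factors and the 184 TPM of cytosolic ribosomal proteins.

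The 85 nuclear-encoded entries for respiratory chain and ATP synthase genes had a median of 109.6 TPM, with Atp5b at 805, Cox4i1 at 481 and Cox8a at 411 TPM, and 4 were under 1 TPM. Of these, Cox8b had 0.47 TPM, Cox7b2 had 0.11 TPM and Cox8c was at 0, and the fourth was a second gene model with the symbol Atp5o (ENSMUSG00000116933.1), at 0.01 TPM. The main gene model of Atp5o (ENSMUSG00000022956.11), an ATP synthase subunit, had 185 and 195 TPM. The 84 cytosolic ribosomal protein genes had a median of 184 TPM, led by Rpl41 at 865, Rplp1 at 613 and Rps29 at 444 TPM, with the paralogues Rpl3l, Rpl10l and Rpl39l under 1 TPM at 0.24, 0.03 and 0. The RNAs the mitoribosome contains and translates were higher again. The large mitochondrial rRNA mt-Rnr2 had 49406 and 40421 TPM and the small rRNA mt-Rnr1 had 34634 and 27251 TPM, in libraries depleted of rRNA, so that these levels do not give the ratio of rRNA to ribosomal protein mRNA in the tissue. The 13 mitochondrial mRNAs had a median of 2041 TPM, led by mt-Co1 at 5588, mt-Cytb at 3339 and mt-Nd1 at 3010 TPM.

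Most of the genes were represented mainly by 1 transcript, and for most of them it was annotated as protein coding. The 78 genes had 343 annotated transcripts, from 1 to 11 per gene. In the transcript tables with RSEM's column layout, which give each transcript's percentage of its gene's TPM, 66 genes had a leading transcript above 50% and 21 above 90%. The leading transcript was protein coding in 62 genes. In the other 16 it was a retained-intron transcript in 5, a transcript annotated for nonsense-mediated decay in 4 and a processed transcript with no coding sequence in 7. The median share of protein-coding transcripts per gene was 87.9%, compared with 89.2% over detected protein-coding genes. A retained-intron share above 10% was found in 28.2% of the genes and 31.3% of detected protein-coding genes.

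**Figure D4:**
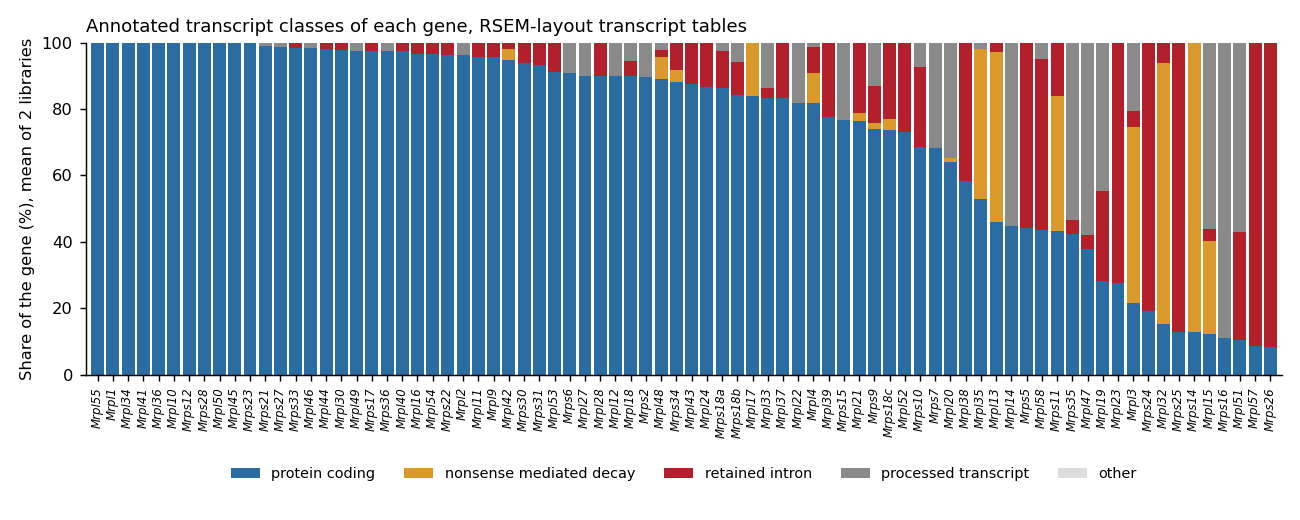
Share of each gene's TPM (vertical axis, percent, mean of both libraries) in each annotated transcript class in the RSEM-layout tables, ordered by the protein-coding share. The share is complete for the genes at the left, and 19 genes at the right lie under 50%.

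Among the retained-intron leaders, Mrps26-201 held 90.7% and 92.8% of Mrps26 in replicates 1 and 2 and Mrpl57-202 held 91.2% and 91.4% of Mrpl57. Mrps24-201 held 66.2% and 75.3%, and Mrps25-201 held 61.3% and 60.8%, and the fifth was Mrpl23-203 of Mrpl23. The leaders annotated for decay were Mrps14-201 (87.3% on average), Mrpl32-201 (70.4%), Mrpl13-202 (51.3%) and Mrpl3-204 (36.9%). The processed transcripts included Mrps16-202 (89%), Mrpl47-202 (57.9%), Mrpl51-202 (57%), Mrpl15-202 (56.3%), Mrpl14-202 (53.5%) and Mrpl19-203 (44.7%). These shares are per length, and 7 of the 16 genes had a protein-coding leader by counts. Mrps25 is an example, since its protein-coding transcript Mrps25-203, 6073 bases long, took 365 and 355 of the 554 and 561 counts but 13.6% and 12.3% of the TPM. Counting by reads, 68 of the 78 genes had a protein-coding leader.

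The transcript assignments were less certain than the gene totals. Both replicates had the same leader for 73 genes, and the RSEM-layout and kallisto-layout tables for 55. The leader differed between replicates in Mrps5, Mrps23, Mrpl55, Mrps11 and Mrpl23. For Mrps14, the decay-annotated Mrps14-201 held 86.8% and 87.9% in the RSEM-layout tables and 0 in the kallisto-layout tables, where the protein-coding Mrps14-202 held 93%. Of the 16 genes whose leader was not annotated as protein coding, 11 also had such a leader in the kallisto-layout tables. The other 5 had a protein-coding leader there. Assignments moved TPM between libraries as well: Mrpl19 had 11.7 and 18.6 TPM with 460 and 573 counts. After library scaling, the log2 ratio of those counts was 0.18, while the log2 ratio of TPM was 0.67.

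The libraries differed at few of the mitoribosomal genes. Each gene's rounded expected counts were compared with an exact two-sided binomial test, with TMM scaling factors from edgeR and p-values adjusted by Benjamini-Hochberg over the 18332 genes whose counts averaged 10 or more. The test asks whether 2 libraries differ beyond counting noise and says nothing about conditions, and where pools were prepared separately the spread includes both animals and preparation. At an adjusted p under 0.05, 4 of the 78 were called (5.13%), where 22.7% of all genes tested were called, and 19.3% of the 8542 genes with mean counts in the range of the members. Of the 4, 3 were higher in replicate 2, a direction called for 12.5% of all genes, and 1 was higher in replicate 1, against 10.2%.

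**Figure D5:**
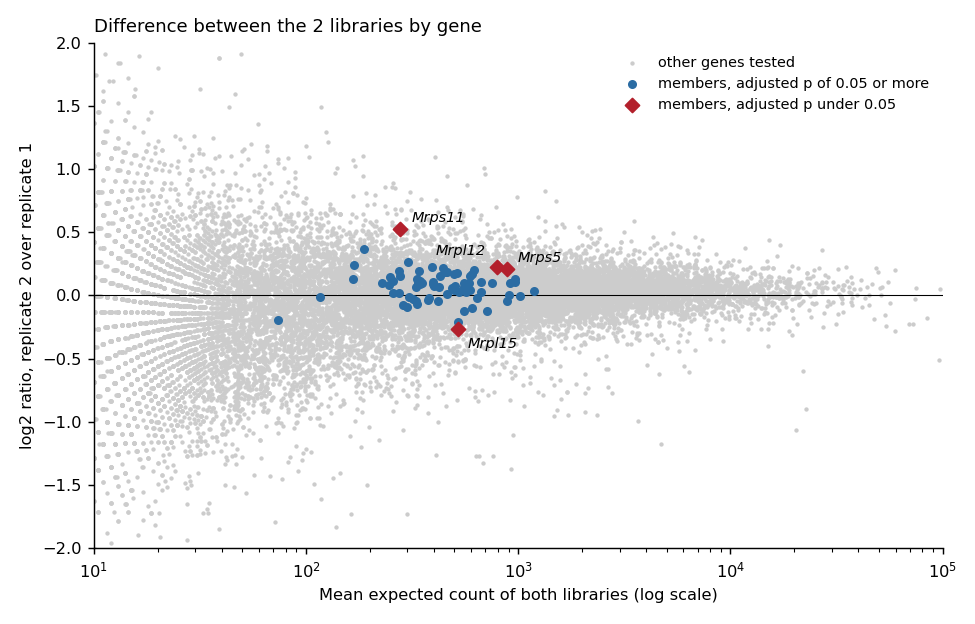
Log2 ratio of replicate 2 over replicate 1 after TMM scaling (vertical axis, shown from -2 to 2) against the mean expected count of both libraries (horizontal axis, log scale) for the genes tested. Mitoribosomal genes are blue, or red diamonds for the 4 called, and 76 of the 78 lie within 0.3 of 0.

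Mrps11, encoding uS11m on the platform of the small subunit, had 215 and 341 counts and the largest log2 ratio, 0.53 (95% interval from counting error 0.28 to 0.78, adjusted p = 0.00028). In the RSEM-layout tables the ratio was accompanied by a change of leading transcript, from Mrps11-205 (decay-annotated, 45.2%) in replicate 1 to the protein-coding Mrps11-201 (53.4%) in replicate 2. In the kallisto-layout tables Mrps11-201 led in both libraries, at 16.2 and 27.8 TPM, and Mrps11-205 had 3.77 and 0 TPM. Mrpl12 had 697 and 895 counts, a log2 ratio of 0.22 (0.08 to 0.37, adjusted p = 0.0144). Mrps5 had 778 and 988 counts, a log2 ratio of 0.21 (0.07 to 0.34, adjusted p = 0.0168). In the kallisto-layout tables Mrps5 had 888 and 1083 counts, a log2 ratio of 0.20, although its TPM there was 50.7 in both libraries. Mrpl15, a large subunit protein, was higher in replicate 1, with 545 and 500 counts and a log2 ratio of -0.26 (-0.44 to -0.09, adjusted p = 0.0185). In the kallisto-layout tables it had 541 and 522 counts and was not called, at -0.14 (adjusted p = 0.257). The 5 members called there, Mrps11, Mrps5, Mrpl12, Mrpl13 and Mrpl18, were all higher in replicate 2, and 25.3% of all genes tested were called. Members that did not pass the test in the gene tables also had ratios of this size. Toward replicate 2 the largest were Mrpl54 at 0.37, Mrpl44 at 0.26, Mrpl14 at 0.24 and Mrpl13 at 0.22. These were at or above the ratios of Mrpl12 and Mrps5, which had more counts. Toward replicate 1 the largest were Mrpl20 at -0.21, Mrpl23 at -0.20, Mrps33 at -0.12 and Mrps25 at -0.12. The 95% interval held 0 for 67 of the 78. In the binomial test 12 of the 78 had an unadjusted p under 0.05, against 32.5% of all genes tested. With an assumed coefficient of variation of 0.1 between pools, edgeR's exact test called 0 of the 78, with 1 at an unadjusted p under 0.05, and 173 of all genes.

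The ratios as a group lay slightly above those of all genes. The median log2 ratio was 0.08 over the 78, compared with 0.003 over all genes tested and 0.02 over protein-coding genes, and 59 were positive and 19 negative (75.6% positive, against 50.5% of all genes). It was 0.08 for large and 0.09 for small subunit genes. The median size of the log2 ratio, irrespective of sign, was 0.10, compared with 0.14 over all genes. The scaling sets the zero: with scaling to the spike-in total the median was 0.19 over the 78 and 0.11 over all genes. With that scaling 24 of the 78 were called, all higher in replicate 2, and 35.5% of all genes tested were called.

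Related genes did not share 1 pattern between the libraries. Of the cytosolic ribosomal protein genes tested, 59 of 81 were called higher in replicate 2 and none in replicate 1, and their median log2 ratio was 0.18. Of the nuclear respiratory chain genes, 9 of 81 were called higher in replicate 2, with a median of 0.03. Both mitochondrial rRNAs were higher in replicate 1, at log2 ratios of -0.34 for mt-Rnr2 and -0.39 for mt-Rnr1, as were 11 of the 13 mitochondrial mRNAs, with a median of -0.23 over the 13. Of the others, mt-Co3 was higher in replicate 2, at 0.11 (adjusted p = 1.9e-13), and mt-Nd6 was not called, at -0.08 (adjusted p = 0.199). The ratio of mt-Rnr2 to mt-Rnr1 was a log2 of 0.51 and 0.57 in the libraries. In the assembly list 2 of 25 were called, both higher in replicate 1, the RNA-binding protein gene Fastkd2 at -0.49 and the methyltransferase partner gene Mterf4 at -0.32. In the synthetase list Gars, Lars2 and Cars2 were higher in replicate 2, at 0.11, 0.20 and 0.35. No gene was called among the 12 translation factors, the 6 genes of mitochondrial DNA transcription, the 8 nuclear regulators or the 5 other mitoribosomal proteins. Myelin markers differed between the same libraries, with a median log2 ratio of -1.12, and the part of tissue composition in these ratios was not tested.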

How the data were processed

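Per the notes deposited with the tables, the authors quantified the libraries on mm10 with GENCODE M21, gene tables and the RSEM-layout transcript tables from transcriptome alignments and the kallisto-layout transcript tables from reads. No source used here names the tools or versions. The deposited expected counts are estimated reads per gene or transcript, the deposited TPM are scaled over every entry, also the spike-ins, and the deposited percent gives each transcript's share of its gene's TPM. The posterior SD of the count is a deposited score of the uncertainty of read assignment.

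Levels were taken as TPM, as the mean and SD of 2 libraries, and 26248 numbered entries and 97 spike-in entries were left out of gene totals (numbered entries held under 0.0001% of counts). For the comparison of libraries, expected counts were rounded, scaled by TMM (edgeR 4.0.16, R 4.3.3) and tested per gene with an exact binomial test (scipy 1.17.1) where the mean count was at least 10, with Benjamini-Hochberg adjustment over all genes and a prior count of 0.5 in ratios. The test was run on counts simulated with Poisson noise alone and known library sizes, as the test assumes. That simulation holds no spread between pools, so it does not show how the test behaves on these libraries. Intervals cover counting error alone, and the limit set by a count of 0 is 3 counts. Alternatives used DESeq2 1.42.0 size factors, spike-in and total scaling, other filters, posterior mean counts, the kallisto-layout tables and edgeR's exact test. Kallisto-layout values were summed per gene. Sequences are from GENCODE M21 and RefSeq (GRCm38.p6). The members and lists were chosen with earlier results of these data known. Named are the 10 highest and 10 lowest members, the 5 largest ratios in each direction and those past the test. Also named are members with a posterior SD above 5%, the 5 that differ most between quantifications and the Mrps18 paralogues. The same holds for Mrps30, Mrps36, Mrpl12, Mrpl58 and members whose leading transcript changes or is not annotated as protein coding. In each list the 3 highest genes and those under 1 TPM are named. Other names were chosen after their values were seen. A transcript-level result of 1 member is not reported here. The labels say that the replicates are biological, and with n = 2 an SD is imprecise.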

Additional observations from a re-analysis of the deposited data

Results flagged for a closer look

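Pseudogenes named after members are outside the rule, since they have no protein-coding transcript, and 2 of the 5 in the gene tables carried counts above the 3 that a count of 0 allows. Mrpl23-ps1 had 248.7 expected counts in the library where it was lower and 256 in the other. Mrpl48-ps (chr4:88599175-88599810, minus strand) had 47.4 in the library where it was lower and 54.4 in the other, beside 860 and 950 counts for Mrpl48. Both were at 0 in the kallisto-layout tables in both libraries. The other 3, all named after Mrps36, were at 0 in both libraries of the gene tables.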

How the results depend on the processing

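The median level was 38.2 TPM in the kallisto-layout tables and 14.6 as CPM, while leaving out a replicate gave 21.3 to 23.3 TPM; leaving out Mrpl23, an alternative chosen after seeing the data, gave 22.3 TPM. The log2 difference of large and small subunit medians was 0.10 in the kallisto-layout tables, and 0.04 to 0.09 with a replicate left out. The number of members called between libraries was 24 with scaling to the spike-in total and 0 with edgeR's exact test, against 4. Of all genes tested, 35.5% were called with the spike-in total, against 22.7%. The number of members was 4 to 6 under the other alternatives, where 15.6% to 28.3% of all genes tested were called. The 5 called in the kallisto-layout tables did not include Mrpl15, the 1 member called higher in replicate 1. The median log2 ratio was 0.10 with DESeq2 size factors, 0.19 with the spike-in total, 0.10 with the total gene count and 0.065 in the kallisto-layout tables. No value of these changed direction under the alternatives run, and the cause of the shifts was not tested. The number of members with a leading transcript above 50% was 63 to 67. No paired analysis was possible because there is 1 group. With 2 libraries, differences between members smaller than their SD are not resolved.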
